A study of Mus musculus with 6 samples.

Results

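Liver sinusoidal endothelial cells (LSECs) line the capillaries of the liver and, like other endothelium, help to decide whether blood clots on the vessel wall. Of 60832 genes counted in LSEC libraries of the mouse, 9 genes of coagulation and fibrinolysis were read here, chosen by gene symbol and not by their values: Vwf, F8, F3, F13a1, Thbd, Procr, Plat, Plau and Plaur. All 9 symbols were found once in the table, and all 9 passed the filter on low counts. The libraries came from mice with tumors of the human colorectal cancer line HCT116 in the liver, 3 libraries from bevacizumab-sensitive and 3 from bevacizumab-resistant xenografts, and values below are given in the order of replicates 1, 2 and 3. Bevacizumab is an antibody against VEGF-A, a growth factor of vessels. By the methods of the study, HCT116 cells were injected into the left liver lobe, male BALB/c-Nu mice were among the strains used, resistance was acquired under repeated intraperitoneal bevacizumab and vehicle mice received IgG. The labels give only sensitive or resistant, and whether the sensitive libraries came from the IgG group is not stated in them. The cells were isolated with anti-CD146 beads, and in both groups the labels state culture for 24 h, in DMEM with 10% serum. The labels do not say whether each library was a separate mouse, so that p-values measure only the spread between these libraries, which may be partly technical.

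Clotting starts when tissue factor, the product of F3, meets blood and sets off a cascade of proteases that ends in thrombin and fibrin. Healthy endothelium holds the cascade back through thrombomodulin (Thbd) and the endothelial protein C receptor (Procr), which together present protein C to thrombin for activation. Fibrin is removed by plasmin, which tissue-type (Plat) and urokinase-type (Plau) plasminogen activators release from plasminogen, the latter while bound to its receptor (Plaur). In the liver, sinusoidal endothelial cells are known as the main source of factor VIII (F8) and have little von Willebrand factor (Vwf), the platelet-binding carrier of factor VIII, whereas factor XIII-A (F13a1), which cross-links fibrin, is known from macrophages, monocytes and megakaryocytes.

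Total counts on genes were between 17599326 and 20726684 per library, at which 3 counts correspond to between 0.145 and 0.170 counts per 1000000 counts of the library (CPM), as a limit set by counting alone. The label of the cells was checked against marker lists. The 14 macrophage and Kupffer cell markers were all above 10 counts in every library and summed to between 24233 and 36817 CPM, against 618.8 to 1199 CPM for 9 sinusoidal and 77.5 to 501.4 CPM for 11 pan-endothelial markers. Every one of these sinusoidal and endothelial markers was counted in each library, but the macrophage sum was above both in all 6, so that the name LSEC is used here as the label gives it. By the methods of the study, flow cytometry found the isolated LSECs to be CD146-positive at high purity. In bulk libraries of this kind, a lower level of a gene cannot be told apart from fewer cells that express it. Replicate 2 of the sensitive group stood apart, with Pearson correlations across genes of 0.860 to 0.901 to the other libraries, where the other pairs had 0.954 to 0.974. Values without it are given beside the results that it moved most.

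Promoter sequence was in RefSeq's GRCm38.p6 tables for 5 of the 9 genes, F8, F3, F13a1, Procr and Plaur. It is shown for the 3 genes in whose 250 bases before the start a binding word of AP-1, a transcription factor family that responds to growth factor and stress signals, was found (TGACTCA or TGAGTCA, which are the same word read on opposite strands). The word is in capitals, and each sequence runs 5′ to 3′ on the plus strand. The start is RefSeq's, which for Procr lies inside the gene as GENCODE gives it below.
F3, chr3:121723287-121723536: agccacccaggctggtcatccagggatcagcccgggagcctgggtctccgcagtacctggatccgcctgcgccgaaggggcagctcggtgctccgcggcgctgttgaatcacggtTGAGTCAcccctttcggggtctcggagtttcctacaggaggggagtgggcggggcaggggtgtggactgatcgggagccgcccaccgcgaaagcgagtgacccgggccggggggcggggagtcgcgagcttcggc
Procr, chr2:155750967-155751216: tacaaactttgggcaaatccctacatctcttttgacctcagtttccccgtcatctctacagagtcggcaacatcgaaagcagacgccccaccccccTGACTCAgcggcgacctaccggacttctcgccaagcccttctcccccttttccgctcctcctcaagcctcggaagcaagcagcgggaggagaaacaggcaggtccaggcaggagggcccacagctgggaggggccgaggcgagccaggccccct
Plaur, chr7:24462233-24462482: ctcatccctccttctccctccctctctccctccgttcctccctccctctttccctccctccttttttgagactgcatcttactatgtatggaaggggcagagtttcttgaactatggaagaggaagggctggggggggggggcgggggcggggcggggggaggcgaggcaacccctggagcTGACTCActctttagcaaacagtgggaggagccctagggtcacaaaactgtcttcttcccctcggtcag
Each of these windows held the AP-1 word 1 time, beginning 135 bases before the RefSeq start of F3, 154 bases before that of Procr and 69 bases before that of Plaur. Of 32851 promoter windows of the same length, 4.46% held it on either strand. The GC box GGGCGG, to which Sp1 binds, was found 3 times in each of the F3 and Plaur windows, on either strand, and in 32.7% of all windows. The TATA box TATAAA, present in 12.4% of all windows, was found in none of the windows of these 5 genes. These matches describe letters and not binding.

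The genes covered a higher and a lower range of expression. On the scale of FPKM, which divides counts by gene length and allows levels of different genes to be compared, F13a1 was highest with 53.4 ± 21.5 (SD, n = 6), followed by Procr with 47.5 ± 24.5, Thbd with 39.8 ± 17.2, Plaur with 29.6 ± 10.0 and Plau with 21.96 ± 8.26. The FPKM ranges of each neighbouring pair among these 5 genes overlapped, and Plaur lay above Plau in 3 of 6 libraries. F3 followed at 4.46 ± 2.78 FPKM, below Plau in 6 of 6 libraries and with no overlap between their ranges. Vwf had 0.820 ± 0.305 FPKM and Plat 0.765 ± 0.459, with Vwf above Plat in 4 of 6 libraries and overlapping ranges. F8 was lowest, at 0.0979 ± 0.0857 FPKM. Among the mean FPKM values of all genes in the table, F13a1 stood at the percentile 98.5, Plau at 96.1, F3 at 87.5, Vwf at 76.8 and F8 at 60.3. Of these 60832 genes only 34055 had a count in any library, so that the percentiles are lower among counted genes.

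**Figure D1:**
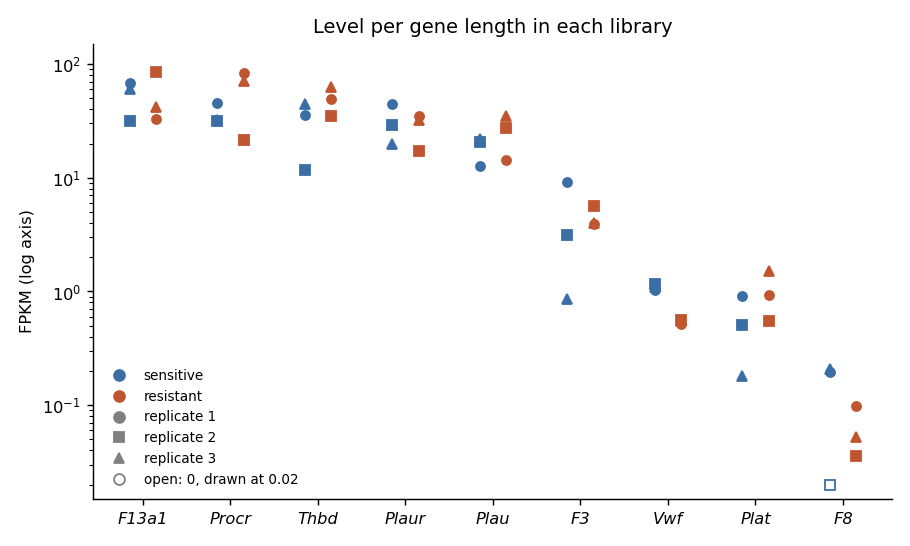
FPKM of the 9 genes in each of the 6 libraries on a log axis, ordered by their mean, with colors for the groups and marker shapes for the replicate numbers. F13a1, Procr, Thbd, Plaur and Plau sit between 11.8 and 85.2 FPKM, and F8 lies at 0.206 or below, with an open symbol for the library at 0.

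The question put to these libraries was whether LSECs of bevacizumab-resistant xenografts differ from those of bevacizumab-sensitive ones, since the drug acts on the vasculature. In edgeR's quasi-likelihood test over 15474 genes, 0% of the genes passed a threshold of 0.05 on the adjusted p-value (Benjamini-Hochberg), and 0 of the 9 coagulation and fibrinolysis genes did, with 0 of 9 also in DESeq2 and limma-voom. Vwf alone among the 9 had an unadjusted p-value under 0.05, where 3.08% of all genes tested did and 2.54% did with a lower value in the resistant group, as for Vwf. Its groups did not overlap, whereas those of the other 8 genes did, and of all genes tested 9.02% did not overlap and 4.38% were lower in the resistant group. The log2 fold change of resistant over sensitive was positive for 5 genes and negative for 4, with a median of 0.04, against 0.01 over all genes tested, 50.8% of which were positive. In the exact permutation test on mean log2(CPM + 1) (two-sided), which cannot go below 0.1 with 3 libraries against 3, the p-value was 0.1 for Vwf and between 0.2 and 1 for the other 8 genes.

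**Figure D2:**
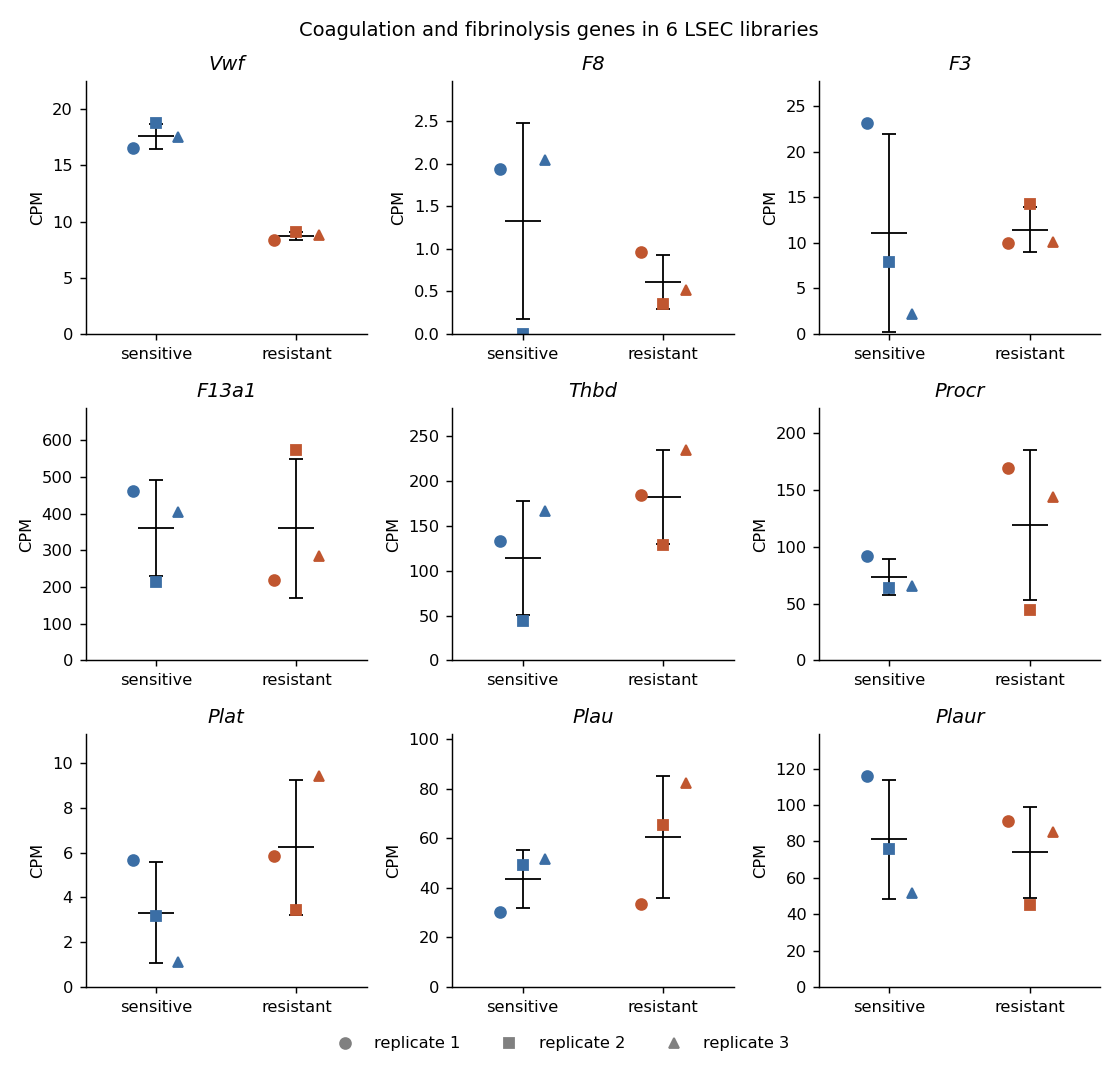
CPM of each gene in the 3 sensitive and 3 resistant libraries, with marker shapes for the replicate numbers and bars for the group mean and SD. The 3 resistant libraries of Vwf lie between 8.35 and 9.05 CPM, below the sensitive ones at 16.5 to 18.8 CPM, and the groups overlap for the other genes.

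Vwf (ENSMUSG00000001930; chromosome 6 of GRCm38, 125546774 to 125686679, plus strand) encodes the multimeric glycoprotein that tethers platelets at sites of injury. Its counts were 324, 330 and 360 in the sensitive libraries and 173, 179 and 170 in the resistant libraries. These correspond to 16.5, 18.8 and 17.5 CPM against 8.35, 9.05 and 8.84 CPM. The resistant libraries thus lay close to each other and well below the lowest sensitive library. The group means were 17.6 ± 1.13 CPM (SD, n = 3) and 8.75 ± 0.363 CPM (SD, n = 3), a ratio of 0.497. The log2 fold change was -1.08 (standard error 0.247, 95% interval -1.66 to -0.50). Its unadjusted p-value in edgeR's quasi-likelihood test was 0.00301 and the adjusted p-value 0.940. The adjusted p-value was 0.0613 in DESeq2 and lay between this and 1.00 over the alternatives run. Leaving out single libraries gave log2 fold changes from -1.18 to -0.96, the latter without replicate 2 of the sensitive group. Within groups, the SD of log2 CPM of Vwf was 0.233 in the sensitive and 0.116 in the resistant libraries, where the medians over all genes tested were 0.540 and 0.233.

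The endothelial and platelet lists, whose cells are known sources of Vwf, were read beside it. The 11 pan-endothelial markers summed to 444.9, 265.7 and 501.4 CPM in the sensitive and to 435.1, 77.5 and 432.6 CPM in the resistant libraries. The groups overlapped in this sum, to which Cdh5, VE-cadherin of endothelial junctions, contributed 195.2, 42.0 and 218.6 CPM in the sensitive and 215.8, 18.0 and 233.5 CPM in the resistant libraries. Of the 11 markers, however, 5 were lower in every resistant than in every sensitive library, namely Tek, Erg, Kdr, Egfl7 and Emcn, where 4.38% of all genes tested were lower without overlap on TMM-scaled values, and none was higher in all, while the groups overlapped for all 9 sinusoidal markers. Named after their values were seen, Erg, an endothelial transcription factor, had 9.78, 12.2 and 14.3 CPM in the sensitive and 5.60, 2.17 and 3.64 CPM in the resistant libraries, and Tek, the angiopoietin receptor, had 16.1, 13.4 and 13.2 CPM and 6.51, 1.01 and 4.32 CPM. That these 5 markers and Vwf were lower in the same 3 libraries follows from the choice of markers lower in every resistant library. Of the markers whose groups overlapped, Cdh5 and Eng had resistant means of 1.03 and 1.05 times the sensitive ones. Those of Pecam1, Tie1, Flt1 and Esam were 0.476 to 0.851 times the sensitive ones. Vwf was at 9.05 CPM in replicate 2 of the resistant group, where the endothelial sum was lowest, close to its level in the other resistant libraries. The 10 platelet and megakaryocyte markers, of which Gp1bb was at 0 in all libraries, summed to between 119.2 and 138.5 CPM in the sensitive and between 96.5 and 434.7 CPM in the resistant libraries. Only Gp9 of them had groups that did not overlap. This part of the platelet receptor for von Willebrand factor had 22, 13 and 13 counts in the sensitive and 5, 2 and 4 in the resistant libraries. The part of either cell type in the difference in Vwf was not tested.

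**Figure D3:**
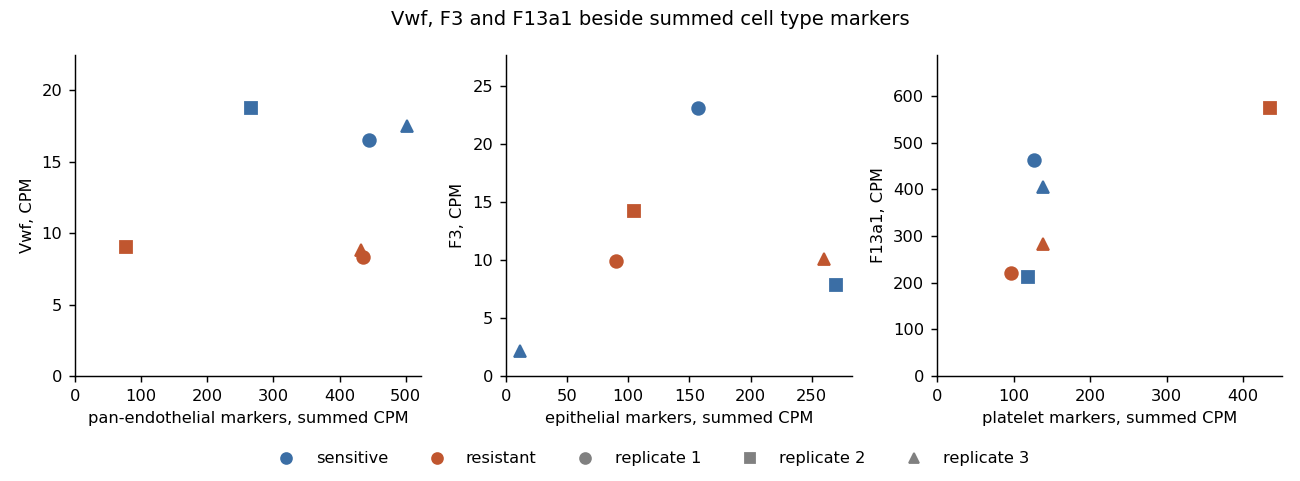
CPM of Vwf, F3 and F13a1 (vertical axes) against the summed CPM of pan-endothelial, epithelial and platelet markers (horizontal axes), 1 point per library. Replicate 2 of the resistant group has the lowest pan-endothelial sum, 77.5 CPM, at a Vwf level of 9.05 CPM, and replicate 3 of the sensitive group has the lowest epithelial sum, 11.5 CPM, and the lowest F3, 2.19 CPM.

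F8 (ENSMUSG00000031196; chromosome X, 75172715 to 75382615, minus strand) encodes the cofactor of factor IXa that circulates bound to von Willebrand factor. It had 38, 0 and 42 counts in the sensitive libraries and 20, 7 and 10 in the resistant libraries. Both nonzero sensitive libraries lay above all resistant ones, and the library at 0, where the depth allows up to 0.170 CPM, lay below them. That library, replicate 2, also had the fewest genes with a count, 21792, against 23275 to 25970 in the others. Tfpi2 and Pdgfrb, named after their values were seen, were likewise at 0 in it alone. With all libraries the log2 fold change was -1.12 (standard error 1.19, 95% interval -3.94 to 1.69). Without replicate 2 of the sensitive group it was -1.70, with an unadjusted p-value of 0.0157 and an adjusted p-value of 0.984 in edgeR's test. That fit leaves out the library at 0, and 632 of the 15965 genes tested in it had an unadjusted p-value under 0.05. The log2 fold change was -0.63 without replicate 3 of the sensitive group, -0.45 with a replicate block and -0.04 in limma-voom. The 9 sinusoidal markers summed to 797.5, 618.8 and 1199 CPM in the sensitive and to 1054, 680.0 and 823.0 CPM in the resistant libraries. Their sum was thus lowest in the library where F8 was at 0. The markers differed in that library, as some named after their values were seen show. Stab1, which made up 462.7 CPM of the sum there, and Lyve1, at 7.67 CPM, were lowest in it, whereas Gpr182 was highest, at 5.28 CPM. Stab2, a scavenger receptor, had 1460 counts there and between 576 and 2936 per library. The part of sinusoidal cells in the level of F8 was not tested.

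F3 (ENSMUSG00000028128; chromosome 3, 121723537 to 121735048, plus strand) encodes tissue factor and showed the widest spread of the 8 genes counted in every library. It had 23.1, 7.90 and 2.19 CPM in the sensitive libraries, a range that enclosed the 9.94, 14.3 and 10.1 CPM of the resistant group. The highest library was 10.6 times the lowest. The group means were nearly equal, 11.1 ± 10.8 and 11.4 ± 2.44 CPM (SD, n = 3 each), and the log2 fold change was 0.04 (standard error 0.712, 95% interval -1.64 to 1.72, adjusted p = 0.993 from edgeR). With single libraries left out it ran from -0.44 (no sensitive replicate 3) to 1.02 (no sensitive replicate 1). The 6 epithelial markers, all keratin, claudin or adhesion genes, summed to 156.7, 269.7 and 11.5 CPM in the sensitive and to 90.3, 104.8 and 260.2 CPM in the resistant libraries. F3 and these markers were lowest in the same library but highest in different ones. The hepatocyte list, at 25.0 CPM, and the stellate and fibroblast list, at 88.3 CPM, were lowest in that library too. The part of any of these cells in the level of F3 was not tested.

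F13a1 (ENSMUSG00000039109; chromosome 13, 36867178 to 37050244, minus strand), the transglutaminase subunit that stabilizes fibrin, was the most abundant of the 9 genes. It had 462.8, 213.4 and 404.7 CPM in the sensitive libraries and 220.2, 574.1 and 283.9 CPM in the resistant libraries. The groups overlapped almost completely, with means of 360.3 ± 130.5 and 359.4 ± 188.6 CPM (SD, n = 3 each). The log2 fold change was -0.02 (standard error 0.428, 95% interval -1.03 to 0.99), and it changed sign in 5 of 15 alternatives. The library with the highest F13a1, replicate 2 of the resistant group, was also the one in which the platelet list was highest, 434.7 CPM, of which Pf4 made up 420 CPM. The rest of the list was not raised there as a whole. Besides Pf4 only Treml1 was highest in that library, at 4.30 CPM, whereas Gp9 was lowest, at 0.101 CPM. Itga2b had 5.06 CPM there, against 2.72 to 23.5 CPM over all libraries. The macrophage list was 26799 CPM there, within its range in the other libraries, but its genes differed in direction. Named after their values were seen, Lyz2 and Cd68 were highest in that library, at 6488 and 1771 CPM, whereas Clec4f, Marco, Timd4 and Spic were lowest. The stellate and fibroblast list was highest there too, at 362.6 CPM. The part of any of these cells in the level of F13a1 was not tested. A predicted gene on the opposite strand, Gm30489, shares 74 bp of exon with F13a1.

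The anticoagulant receptors had higher means in the resistant group, with overlapping libraries. Thbd (ENSMUSG00000074743; chromosome 2, 148404466 to 148408188, minus strand) encodes thrombomodulin, which turns thrombin from clotting toward activation of protein C. Its CPM was 133.3, 43.8 and 165.9 in the sensitive libraries and 183.8, 128.7 and 233.8 in the resistant libraries. Replicates 1 and 3 of the resistant group lay above all sensitive libraries, and replicate 2 lay below 2 of them. Resistant over sensitive, the log2 fold change was 0.64 (standard error 0.444, 95% interval -0.41 to 1.69, adjusted p = 0.940 from edgeR). Without replicate 2 of the sensitive group, the lowest library, it was 0.28. It was 1.03 with sensitive replicate 3 left out and 0.42 with resistant replicate 3 left out.

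Procr (ENSMUSG00000027611; chromosome 2, 155751117 to 155755471, plus strand) encodes the receptor that holds protein C on the endothelial surface. The sensitive libraries were close together at 92.1, 64.0 and 65.2 CPM, whereas the resistant ones were at 169.8, 44.0 and 143.7 CPM. The resistant group therefore contained both the highest and the lowest library. Between the groups, the log2 fold change was 0.62 (standard error 0.446, 95% interval -0.44 to 1.67, adjusted p = 0.940 from edgeR). Replicate 2 of the resistant group, in which Procr was lowest, was the library with the lowest pan-endothelial sum, 77.5 CPM. Without it the log2 fold change was 1.01, with an unadjusted p-value of 0.00623 and an adjusted p-value of 0.999 in edgeR's test. That fit leaves out the lowest Procr value, and 245 of the 16213 genes tested in it had an unadjusted p-value under 0.05. Without replicate 1 of the resistant group the log2 fold change was 0.32. The part of endothelial content in the level of Procr was not tested.

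**Figure D4:**
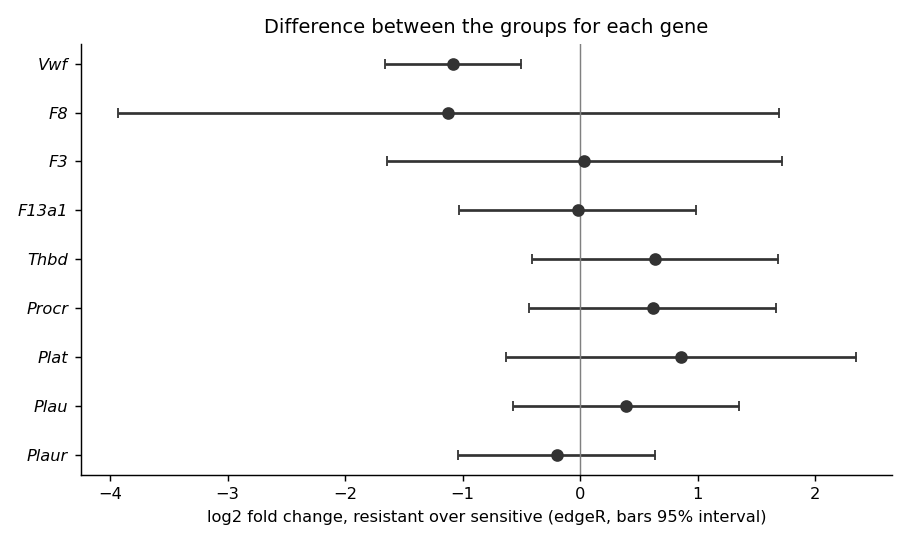
Log2 fold change of resistant over sensitive from edgeR for each of the 9 genes, with 95% intervals not adjusted for the number of genes. The interval of Vwf runs from -1.66 to -0.50, and those of the other genes include 0.

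Plat (ENSMUSG00000031538; chromosome 8, 22757727 to 22782844, plus strand), the plasminogen activator that endothelium releases, had 5.65, 3.18 and 1.12 CPM in the sensitive libraries and 5.84, 3.44 and 9.41 CPM in the resistant libraries. The lowest library rested on 23 counts. Resistant replicates 1 and 3 exceeded every sensitive library. The log2 fold change was 0.86 (standard error 0.630, 95% interval -0.63 to 2.34), the largest positive one among the 9 genes, and from 0.43, without replicate 3 of the resistant group, to 1.37, without replicate 1 of the sensitive group, with single libraries left out.

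Plau (ENSMUSG00000021822; chromosome 14, 20836660 to 20843385, plus strand) encodes urokinase, the activator used by migrating and inflammatory cells. Its CPM was 30.1, 49.0 and 51.6 in the sensitive libraries and 33.6, 65.3 and 82.1 in the resistant libraries. Resistant replicates 2 and 3 lay above the sensitive libraries and replicate 1 among them. The log2 fold change was 0.39 (standard error 0.408, 95% interval -0.57 to 1.35), and it was 0.12 without replicate 3 and 0.71 without replicate 1 of the resistant group and 0.15 without replicate 1 of the sensitive group.

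Plaur (ENSMUSG00000046223; chromosome 7, 24462484 to 24475968, plus strand), the urokinase receptor, had 115.9, 76.0 and 51.4 CPM in the sensitive libraries and 91.4, 45.3 and 85.0 CPM in the resistant libraries. The groups overlapped, with a log2 fold change of -0.20 (standard error 0.355, 95% interval -1.04 to 0.64), which was positive, at 0.06, without replicate 1 of the sensitive group. The 10 neutrophil markers summed to 4263, 6387 and 282.0 CPM in the sensitive and to 1721, 897.4 and 222.0 CPM in the resistant libraries. Neutrophils are a known source of the receptor. The library with the highest neutrophil sum had the fourth highest level of Plaur, and the part of these cells was not tested. The adjusted p-value of Plat, Plau and Plaur in edgeR's test was 0.940 each.

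The profiles of the genes over the libraries were then compared. As a measure of likeness, the root mean square distance between centered log2 CPM values of a pair of genes over the 6 libraries was used, which has no test here. The values were not scaled, so that the distance also depends on the spread of each gene and does not rank likeness of shape alone. The root mean square spread was 0.443 for Plaur, 0.545 for Plau, 0.553 for Vwf, 0.633 for Procr, 0.901 for Plat, 1 for F3 and 1.48 for F8. Among the 9 genes, the smallest distance was that of Procr and Plaur, 0.473, followed by 0.670 for Vwf and Plaur and 0.685 for F3 and Plat. Vwf and F8, whose products form a complex in plasma, were 1.67 apart, and Plau and its receptor Plaur 0.861. Of 9643 genes with an average log2 CPM of at least 3, those nearest to Vwf were Lpar1 (0.211), H1f0 (0.216) and Cela1 (0.227), where the root mean square spread of Vwf itself was 0.553. Nearest to Thbd were Slc40a1 (0.123), Arhgef12 (0.135) and Tmem175 (0.136). For Plaur these were Btg2 (0.124), Plpbp (0.177) and Aacs (0.185), and those of Procr included Myo6 (0.272) and Zfp703 (0.317). Sema4d (0.174), Mthfs (0.213) and H1f2 (0.217) lay nearest to F13a1, and Rida (0.169), P4ha2 (0.226) and Rpl34-ps1 (0.234) to Plau. The neighbors of F3, Plat and F8 were farther away, beginning with Sema3e (0.334), Me1 (0.381) and 1700071M16Rik (0.631). F3 was followed by Plp2 (0.375) and Lox (0.405), Plat by Cdk18 (0.470) and Dusp5 (0.484), and F8 by Nr1d1 (0.658) and Lrch3 (0.661).

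The wider pathway was read as 50 further genes in 5 lists, of which 38 passed the filter. By edgeR's test 0 of them passed after adjustment and 3 had an unadjusted p-value under 0.05, with 26 fold changes positive, 12 negative and a median log2 fold change of 0.17. Over all genes tested, 3.08% had such an unadjusted p-value, 50.8% of fold changes were positive and the median was 0.01. Among 14 clotting factors made mainly by the liver, 11 were tested, 6 with positive and 5 with negative fold changes and a median of 0.72. F10, the protease that converts prothrombin, had 290.0, 556.3 and 147.2 CPM in the sensitive and 148.5, 119.6 and 51.8 CPM in the resistant libraries. Its groups overlapped by a single library in CPM and not after TMM scaling, and its log2 fold change was -1.76 (standard error 0.600, unadjusted p = 0.0218 and adjusted p = 0.940 from edgeR). Without replicate 2 of the sensitive group, the highest library, this was -1.03. Fga and Fgb, chains of fibrinogen, had log2 fold changes of 1.63 (standard error 0.666, unadjusted p = 0.0443 and adjusted p = 0.940 from edgeR) and 1.10. Both were highest in replicate 2 of the resistant group, with 28.4 and 23.7 CPM, and without it the changes were 0.52 and 0.29. The 8 hepatocyte markers were highest in that library too, summing to 130.5 CPM against 25.0 to 85.9 CPM in the others, and the part of hepatocyte RNA was not tested.

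**Figure D5:**
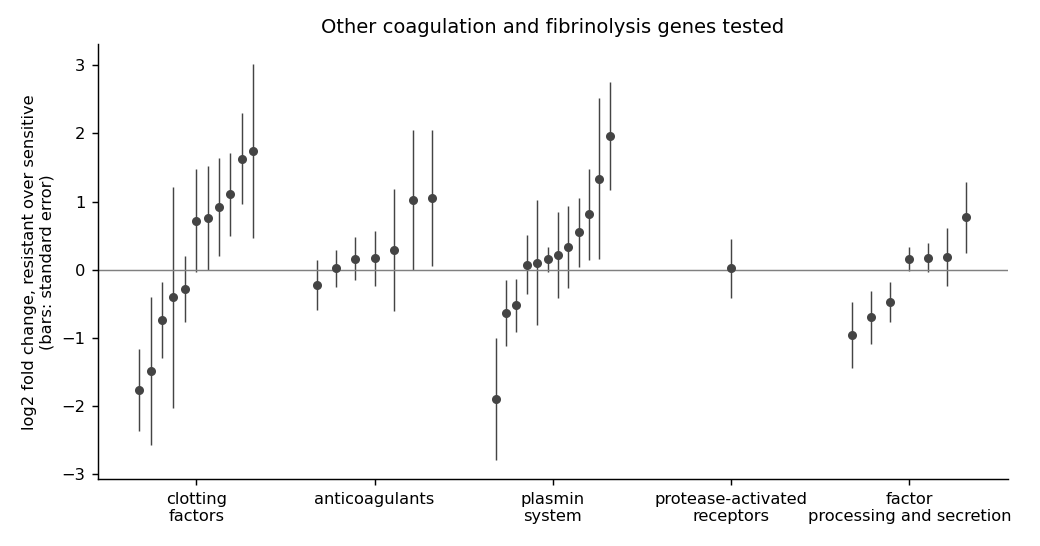
Log2 fold change of resistant over sensitive with its standard error for the 38 further coagulation and fibrinolysis genes tested, in 5 lists. Points lie on both sides of 0 in all lists but the protease-activated receptors, of which only F2r was tested, at 0.02.

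Of 10 anticoagulants, 7 were tested, 6 with positive fold changes, and the median was 0.17. For Tfpi, which inhibits tissue factor, the log2 fold change was 0.16 (standard error 0.321), and for Pros1, the cofactor of activated protein C, it was -0.22 (standard error 0.370). Anxa5, which shields anionic phospholipid, had 587.7 ± 68.6 CPM in the sensitive and 630.2 ± 134.3 CPM in the resistant group (SD, n = 3 each), with a change of 0.02. Of 14 genes of the plasmin system, 12 were tested, 9 with positive fold changes, and the median was 0.18. Lrp1, which clears complexes of protease and inhibitor, differed by 0.55 on the log2 scale (standard error 0.508), and Anxa2 and S100a10, which form a plasminogen receptor together, had -0.63 (standard error 0.481) and -0.52 (standard error 0.388). Without replicate 2 of the sensitive group, Lrp1 was at 0.15, Anxa2 at -0.08 and S100a10 at -0.10 on the same scale. Plg, the plasmin precursor, named here after its values were seen, was the third gene past the unadjusted threshold. It had a log2 fold change of 1.96 (unadjusted p = 0.0412 and adjusted p = 0.940 from edgeR) and its highest level, 8.09 CPM, in replicate 2 of the resistant group. Of 4 protease-activated receptors only F2r, the thrombin receptor, was tested, with 23.4 ± 13.5 and 23.9 ± 8.56 CPM (SD, n = 3 each). Of 8 genes for processing and secretion of factors, 7 were tested. Among them, Rab27a and Unc13d, which act in granule release, had log2 fold changes of -0.96 (standard error 0.490) and -0.70 (standard error 0.388), and Ggcx, the vitamin K-dependent carboxylase, had 0.77 (standard error 0.517). Unc13d was at -0.16 and Ggcx at 0.36 without replicate 2 of the sensitive group, and Rab27a at -0.59 without replicate 1 of that group.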

How the data were processed

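RNA-seq counts of 6 LSEC libraries were used. The authors deposited raw counts per gene and FPKM (counts scaled to gene length and library total), and the submitters' processing notes name HISAT2 2.0.5, an aligner, and featureCounts 1.5.0-p3, a read counter. The strand setting of the counting is not given in the sources used here. Libraries were of RNA depleted of ribosomal RNA per the labels and the methods, which also name poly(A) selection. A further table of the authors' own comparison, with group means, fold changes and p-values, was not used; the notes also name DESeq2 1.16.1 and edgeR. The submitters' processing notes name mm9, but gene lengths implied by counts and FPKM lay within 1% of GENCODE M21 exon lengths for 98.4% of 12545 genes, so positions are of GRCm38, by Ensembl identifier. A step that separates human from mouse reads is not given in the sources used here.

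Groups and replicate numbers came from the titles. The design text of the series instead describes cells of the human stellate line LX-2 in conditioned media, which is not what the titles describe. The test was edgeR 4.0.16 (R 4.3.3). Genes passing filterByExpr were scaled by TMM (factors 0.881 to 1.07) and compared with the robust quasi-likelihood test without covariates, with Benjamini-Hochberg adjustment over 15474 genes and a threshold of 0.05. CPM printed are of library totals. Standard errors are those implied by the F statistic. Non-overlap was counted on TMM-scaled CPM for the members, the pathway genes and all genes tested. For the cell type markers it was counted on CPM of library totals. Log2 CPM used a prior count of 2. Libraries within a group differed by more than sampling noise (chi-square per gene of at least 37.8). Alternatives were RLE size factors, library totals, DESeq2 1.42.0, limma-voom (limma 3.58.1), stricter and no filtering, limma on log2(FPKM + 1) and log2(FPKM + 0.1), a replicate block and omission of each library. Pathway genes named are, per list, the 3 that differed most in size of log2 fold change among those whose average log2 CPM was 3 or more. Genes named for likeness are the 3 nearest to each member among genes at that level, of which 1 is not reported here. The 9 members, the lists and the tests were chosen with earlier results of these data known. Figures were drawn with matplotlib 3.10.9.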

Additional observations from a re-analysis of the deposited data

How the results depend on the processing

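Of the 9 coagulation and fibrinolysis genes and the 50 pathway genes, 0 passed the adjusted threshold in every alternative run. Over all genes 24 passed with DESeq2 and 2 with no filter on low counts, and 0 in the other alternatives; the cause was not tested. Fits without one library gave 0, with 167 to 1056 genes past the unadjusted threshold, against 476 with all libraries. Without a library, between 1 and 4 of the 9 genes had groups that did not overlap, against 12.6% to 26.4% of all genes tested; the 4 were without replicate 2 of the resistant group, where the share of all genes was 14.8%. Other scalings left this number at 1 and put the median log2 fold change of all genes between -0.00039 and 0.065. Of 134 values of the 9 genes, 124 kept both sign and side of the threshold and 10 changed sign. With no filter F13a1 was at 0.032 on the log2 scale. Without one library, F3 was between -0.44 and 1.02, F13a1 between -0.57 and 0.26 and Plaur between -0.44 and 0.060. Of the pathway genes, Pros1 was then between -0.55 and 0.15, Tfpi between -0.12 and 0.45, Anxa5 between -0.14 and 0.19 and F2r between -0.27 and 0.49, and with at least 10 counts in every library Anxa5 was -0.0053 and F2r -0.0015. F8 could not be tested with that filter. Deviations of same-numbered libraries correlated at -0.0009, 0.034 and 0.194. Libraries with different numbers were not correlated beside them, so that these values cannot decide whether libraries were paired. In a fit with the replicate block, 0 of all genes passed after adjustment and 467 before it. Vwf (-1.07, unadjusted p = 0.00919) and Thbd (0.77, unadjusted p = 0.0380) were then the members past the unadjusted threshold in edgeR's quasi-likelihood test, each with an adjusted p of 0.938. On log2(FPKM + 1), Vwf had -0.44, where the pseudocount is near or above its values of 0.520 to 1.17 FPKM. Depth limits F8, with 42 counts at most.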

Other observations

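The coagulation and fibrinolysis genes varied within groups in different ways. The SD of log2 CPM over the 3 libraries of F3 was 1.64 in the sensitive and 0.338 in the resistant group, and that of Procr was 0.201 and 1.01. Over all genes tested, the median SD was 0.540 in the sensitive and 0.233 in the resistant group. Vwf was the only one of the 9 genes whose SD lay below these medians in both groups.

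F7, the partner of tissue factor in starting coagulation, named after its values were seen, had 59.7 FPKM on average over the 6 libraries, against 4.46 FPKM for F3. It had 111.5, 143.5 and 103.3 CPM in the sensitive and 41.0, 155.4 and 111.4 CPM in the resistant libraries.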
